A study of Mus musculus with 8 samples.

Results

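The genes described are 8 kallikrein-related peptidases of the epidermis (Klk5, Klk6, Klk7, Klk8, Klk10, Klk11, Klk13 and Klk14), the inhibitor gene Spink5 and the matriptase gene St14. They were chosen by name among the array rows that carry exactly 1 gene symbol, and all 10 were found, of 19938 genes with such a row. Each gene had 1 row, and all 10 passed the filter on dim rows, so all 10 are among the 15174 genes tested. The RNA came from full-thickness skin of mouse fetuses at E17.5, with 4 arrays labelled Pparg null (PpargΔ/Δ) and 4 arrays labelled control (PPARgamma wildtype), both on a mixed C57BL6/SV129 background. The labels name neither the deleted part of Pparg nor the cells in which it was deleted, and they give no litter or sex. Each array carried an individual RNA, so p-values measure the spread between these RNAs.

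Shedding of the outer epidermis depends on serine proteases that are secreted by granular cells and cut the corneodesmosomes that hold cornified cells together. Klk5 and Klk14, which cut after basic residues, can activate other kallikreins, and Klk7, which cuts after aromatic residues, cleaves corneodesmosin and desmocollin 1. LEKTI, the product of Spink5, is a secreted multidomain inhibitor that holds Klk5, Klk7 and Klk14 in check, and its loss causes Netherton syndrome in humans. Matriptase, encoded by St14, is a membrane-anchored serine protease that activates prostasin and is needed for filaggrin processing in mouse epidermis.

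The Pparg row does not check the labels. It read 9.12 ± 0.10 on the arrays labelled Pparg null and 8.94 ± 0.13 on control arrays (log2 values, SD, n = 4 each; limma adjusted p = 0.9995). Whether the row reads the deleted part is not known, because the labels do not name that part. Of 11 tested white adipocyte markers 4 passed a limma adjusted p of 0.05, all lower in the labelled-null group. Cd36, Fabp4 and Aqp7 differed by -0.92, -1.13 and -0.85 (limma adjusted p = 0.00585, 0.0189 and 0.0345), and Lpl read 9.05 ± 0.25 on labelled-null arrays and 10.05 ± 0.20 on control arrays (log2 values, SD, n = 4 each; limma adjusted p = 0.0276). Array medians lay between 6.93 and 6.96 on the log2 scale. A principal component analysis of tested autosomal genes set labelled-null array 4 apart: its score on the leading axis was -21.68, against -8.62 to 9.02 for the other 7 arrays. Differences of the 10 genes, and some correlations, are therefore also given without that array. Relations of single members with Klk7 are given without labelled-null arrays 4 and 1 together. Permutation p-values and the differences of other genes use all 8 arrays.

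None of the 10 genes differed between the groups at the threshold of 0.05 (limma, Benjamini-Hochberg adjusted). Of all 15174 genes 0.119% passed it, so a count of 0 among 10 genes is near what that share gives. The count of 18 behind that share fell to between 3 and 15 when 1 array was left out, and each such fit also called 0 of the 10. At an unadjusted p under 0.05 the count was also 0 of 10, against 3.61% of all tested genes. The groups of 4 arrays overlapped for every one of the 10 genes, whereas 2.45% of all tested genes had groups that did not overlap. Of the 10 differences (labelled Pparg null minus control), 7 lay above 0 and 3 below, with a median of 0.08 on the log2 scale beside -0.001 for all tested genes. That split rested on labelled-null array 4: without it only Klk11 stayed above 0, at 0.028, and all the others lay below. The 95% confidence intervals of the 10 differences together spanned -0.39 to 0.59 on the log2 scale. The widest upper bound, that of Spink5, allows a level 1.51-fold that of control, and the lowest lower bound, that of Klk5, allows 0.764-fold. In bulk skin, fewer cells of a type and less RNA per cell cannot be told apart.

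**Figure D1:**
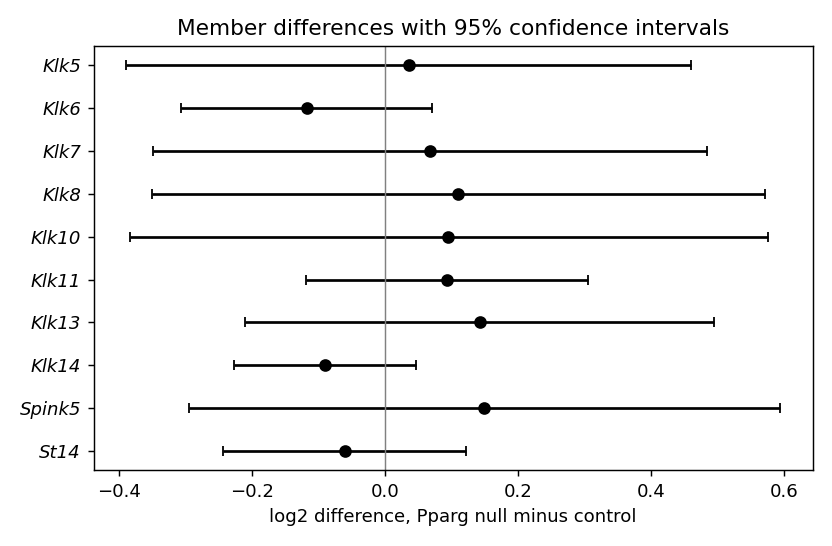
Log2 difference of each gene, arrays labelled Pparg null minus control arrays (horizontal axis), with points for the limma estimate and bars for the 95% confidence interval (n = 4 arrays per group). All 10 intervals include 0, and they are narrowest for Klk14 (-0.23 to 0.05).

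Klk5, the trypsin-like activator of the cascade, read 9.74, 10.24, 9.94 and 10.68 on labelled-null arrays 1 to 4, against 10.16, 9.77, 10.25 and 10.28 on control arrays 1 to 4 (log2 values). Labelled-null array 4 was the highest of the 8 and labelled-null array 1 the lowest, so the control values lay inside the labelled-null range. The difference was 0.04 (SE 0.19, limma adjusted p = 0.9995; exact two-sided permutation p = 0.914, where the smallest that 4 arrays against 4 can give is 0.0286). Klk14, the other trypsin-like activator, read 6.14, 6.04, 6.09 and 6.22 on labelled-null arrays, against 6.31, 6.23, 6.20 and 6.11 on control arrays. It had the smallest p of the 10 genes, with a difference of -0.09 (SE 0.061, limma adjusted p = 0.9995; exact two-sided permutation p = 0.2), and control arrays 3 and 4 lay inside the labelled-null range.

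Klk7, the chymotrypsin-like protease of corneodesmosomes, read 11.29, 11.69, 11.42 and 12.27 on labelled-null arrays, against 11.75, 11.38, 11.63 and 11.64 on control arrays (log2 values). The same labelled-null arrays were extreme as for Klk5, and the group means of 11.67 ± 0.43 for labelled null and 11.60 ± 0.16 for control (SD, n = 4 each) differed by less than the spread within either group (difference 0.07, SE 0.19, limma adjusted p = 0.9995). Klk8, also called neuropsin, read 9.53, 9.95, 9.63 and 10.57 on labelled-null arrays, against 9.998, 9.52, 9.83 and 9.89 on control arrays. Its order of arrays was almost that of Klk7, and the difference was 0.11 (SE 0.21, limma adjusted p = 0.9995).

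Klk10, Klk11, Klk13 and the dim Klk6 had overlapping groups as well. Klk10 read 8.06, 8.54, 7.92 and 8.86 on labelled-null arrays, against 8.70, 7.97, 8.20 and 8.13 on control arrays, so the highest control array was number 1. Klk13 read 8.57, 8.96, 8.83 and 9.46 on labelled-null arrays, against 8.83, 8.70, 8.83 and 8.90 on control arrays. Its control arrays had an SD of 0.09 and its labelled-null arrays one of 0.38. Klk11 ran from 7.83 to 8.23 on labelled-null arrays and from 7.84 to 8.04 on control arrays. Klk6, also called neurosin, ran from 5.998 to 6.34 on labelled-null arrays and from 6.18 to 6.37 on control arrays, with the most negative difference of the 10 at -0.12 (SE 0.084, limma adjusted p = 0.9995). Klk6 and Klk14 were the dim rows of the set, since neither passed a filter at the 50th percentile of the arrays.

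Spink5 read 9.52, 9.83, 9.62 and 10.52 on labelled-null arrays, against 9.69, 9.47, 9.96 and 9.77 on control arrays (log2 values). Labelled-null array 4 was again the highest of the 8, and the lowest was control array 2. The difference of 0.15 was the largest of the 10 and lay within its error (SE 0.20, limma adjusted p = 0.9995; exact two-sided permutation p = 0.686). St14 read 8.98, 9.17, 9.09 and 9.32 on labelled-null arrays, against 9.27, 9.06, 9.17 and 9.30 on control arrays. Its difference was -0.06 (SE 0.082, limma adjusted p = 0.9995), with an interval of -0.24 to 0.12.

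**Figure D2:**
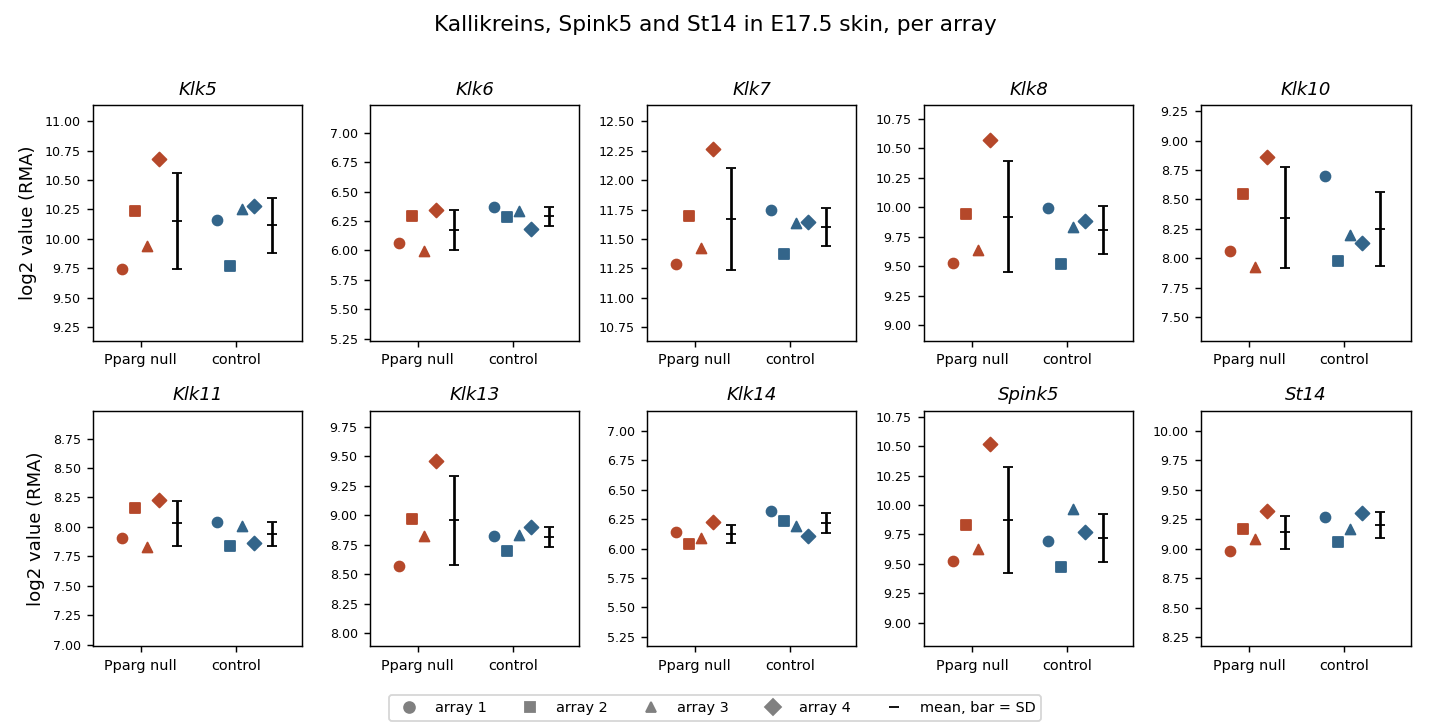
Log2 RMA value (vertical axis, each panel 2 log2 units high) of each gene on the 4 arrays labelled Pparg null (left, red) and the 4 control arrays (right, blue); symbols mark the array number, and the bar beside each group is the mean with its SD. Labelled-null array 4 is the highest labelled-null value in all 10 panels, and the groups overlap in every panel.

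The signs of 6 of these differences rested on single arrays. Without labelled-null array 4 the difference was -0.14 for Klk5, -0.13 for Klk7, -0.11 for Klk8, -0.07 for Klk10, -0.03 for Klk13 and -0.07 for Spink5, all of which were above 0 with it. Without control array 2 the difference was -0.08 for Klk5 and -0.01 for Klk7. Klk11 stayed above 0 and Klk6, Klk14 and St14 stayed below 0 in all 8 fits that left out 1 array. Without labelled-null array 4 these 4 genes were at 0.028, -0.174, -0.125 and -0.122, in that order. None of the 10 genes passed the threshold in any of those fits.

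Values within the labelled-null group ranged more widely than the groups differed for each of the 10 genes. Labelled-null array 4 was the highest of its group for 10 of 10 genes and the highest of all 8 arrays for 8 of 10, the exceptions being Klk6 and Klk14, whose highest value was on control array 1. It exceeded the mean of the other 3 labelled-null arrays by 0.87 for Klk8, 0.86 for Spink5, 0.80 for Klk7 and 0.71 for Klk5, and by 0.24 for St14 and 0.14 for Klk14 (log2). At the low end, labelled-null array 1 or 3 was the lowest of its group for 9 of 10 genes, and control array 2 was the lowest control for 8 of 10. How often these arrays were highest or lowest over all tested genes was not counted. Most of the 10 genes moved together, so these counts are not 10 separate observations. The median SD of the 10 genes was 0.39 among labelled-null arrays and 0.13 among control arrays, beside medians of 0.10 and 0.09 over all tested genes. Without labelled-null array 4 the labelled-null median was 0.19 for the 10 genes and 0.08 for all tested genes. The difference in spread between the groups was not tested.

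Most of the genes followed one another across the 8 arrays, with the dim Klk14 the clearest exception. All 45 pairs had a Pearson r above 0 with a median of 0.75, and 18 pairs exceeded 0.8. Over the 7 arrays without labelled-null array 4, 41 pairs stayed above 0, the median was 0.61 and 13 pairs exceeded 0.8, and all 4 pairs below 0 held Klk14. The median r with the other 9 genes was highest for Klk8 (0.89), Klk5 (0.88) and Klk7 (0.87) and lowest for Klk6 (0.58) and Klk14 (0.25), neither of which exceeded 0.8 with any of the others. Klk6 and Klk14 are the dim rows of the set. The SD of Klk14 was 0.079 on labelled-null and 0.085 on control arrays, below the medians of 0.095 and 0.088 over all tested genes. Whether the low r of these rows belongs to the genes or to their dimness was not tested. The median r of Klk7 with all tested genes was 0.04, and 8.57% of them exceeded 0.8. Without labelled-null array 4 its median r was 0.81 with the other 9 genes and 0.06 with all tested genes, of which 4.7% exceeded 0.8. The arrays share normalization, and these correlations describe 8 arrays.

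Klk7 was set against each of the other 9 genes over the 8 arrays, with exact two-sided permutation p-values adjusted by Benjamini-Hochberg over the 9 relations. By Pearson 7 of 9 passed 0.05, and by Spearman 8 of 9, with the same counts before adjustment. At an unadjusted exact p under 0.05, 22.0% of the other 15164 tested genes passed against Klk7 by Pearson and 15.4% by Spearman. Klk8 followed Klk7 most closely (r = 0.996, exact p = 7.44e-05, adjusted 0.00067; rho = 0.976, exact p = 0.000397, adjusted 0.00357), and r was 0.993 without the 2 arrays farthest from the Klk7 median, labelled-null arrays 4 and 1. Spink5, the inhibitor, followed the protease as well (r = 0.936, exact p = 0.00355, adjusted 0.00638; rho = 0.762, exact p = 0.0368, adjusted 0.0414), but r fell to 0.695 without those 2 arrays. St14 had an r of 0.838 (exact p = 0.00454, adjusted 0.00681; rho = 0.881, exact p = 0.00724, adjusted 0.0217) and kept 0.822 without them. Klk13 had an r of 0.952 (exact p = 0.00161, adjusted 0.00363; rho = 0.762, exact p = 0.0368, adjusted 0.0414) and 0.681 without them. The relation of the dim Klk14 with Klk7 did not pass (r = 0.292, exact p = 0.498, adjusted 0.498; rho = 0.167, exact p = 0.703, adjusted 0.703).

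**Figure D3:**
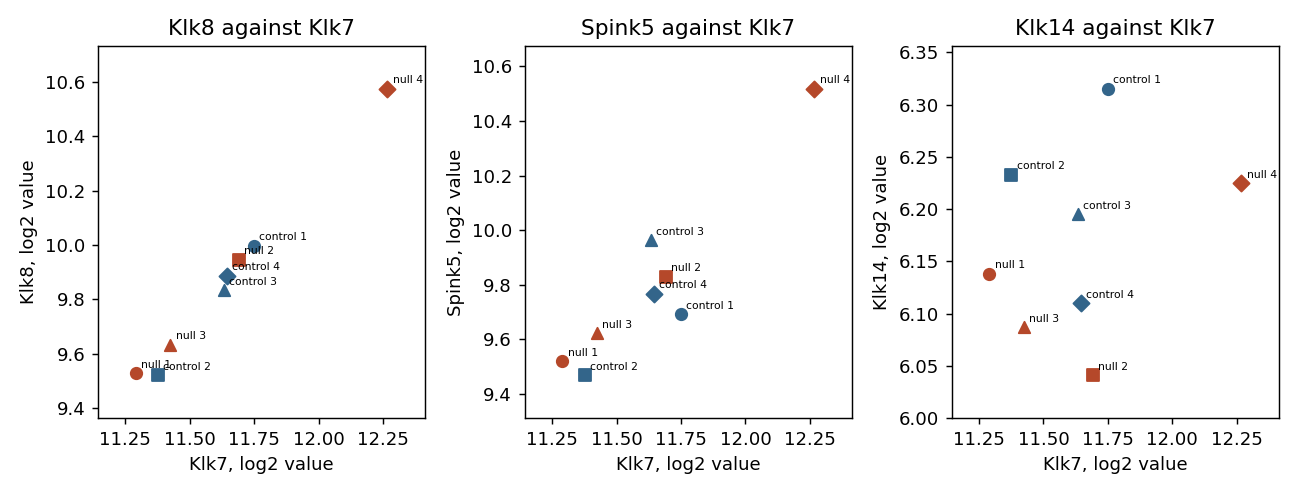
Log2 values of Klk8, Spink5 and Klk14 (vertical axes) against Klk7 (horizontal axis) on the 8 arrays; red marks arrays labelled Pparg null, blue control arrays, and symbols the array number. Klk8 lies close to a line through all arrays (r = 0.996), Spink5 is spread at middle Klk7 values, and Klk14, a dim row, is scattered (r = 0.292).

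In the RefSeq annotation of GRCm38.p6 the 8 kallikreins lie on chromosome 7 within a run of 10 protein-coding genes, in the order Klk14, Klk13, Klk12, Klk11, Klk10, Klk9, Klk8, Klk7, Klk6 and Klk5. Spink5 and St14, which also followed Klk7, lie on other chromosomes. The share of the other 15164 tested genes that passed against Klk7 by Pearson (unadjusted exact p under 0.05) was 22.0%. Any part of gene position was not tested. Klk6, the gene between Klk7 and Klk5, had an r of 0.629 with Klk7 (exact p = 0.0943, adjusted 0.106; rho = 0.762, exact p = 0.0368, adjusted 0.0414; r = 0.568 without the 2 farthest arrays), and Klk5 one of 0.951 (exact p = 0.00151, adjusted 0.00363; rho = 0.786, exact p = 0.0279, adjusted 0.0414; r = 0.879 without them).

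RefSeq promoter sequences were found for the 8 kallikreins, in 10 windows because Klk6 and Klk11 have 2 starts each. The 250 bases before the annotated start are shown for Klk7 and its closest follower Klk8, for the activator Klk5, and for the dim Klk14, whose r with Klk7 was the lowest of the 9. All lie on the plus strand of GRCm38.p6 and are read 5′ to 3′. Capitals mark the CACCC box (CACCC or its reverse complement GGGTG), a motif bound by Krüppel-like factors.
Klk7, chr7:43811044-43811293: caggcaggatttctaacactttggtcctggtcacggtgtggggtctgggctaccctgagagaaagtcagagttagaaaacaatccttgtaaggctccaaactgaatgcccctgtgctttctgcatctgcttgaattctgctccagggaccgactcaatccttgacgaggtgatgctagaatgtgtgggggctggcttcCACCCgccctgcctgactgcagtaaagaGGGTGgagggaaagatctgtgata
Klk8, chr7:43797327-43797576: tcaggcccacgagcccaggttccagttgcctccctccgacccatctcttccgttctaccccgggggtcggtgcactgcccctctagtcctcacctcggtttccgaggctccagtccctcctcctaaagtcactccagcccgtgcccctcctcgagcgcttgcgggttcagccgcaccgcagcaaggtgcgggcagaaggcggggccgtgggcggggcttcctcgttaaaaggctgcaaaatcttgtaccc
Klk5, chr7:43842019-43842268: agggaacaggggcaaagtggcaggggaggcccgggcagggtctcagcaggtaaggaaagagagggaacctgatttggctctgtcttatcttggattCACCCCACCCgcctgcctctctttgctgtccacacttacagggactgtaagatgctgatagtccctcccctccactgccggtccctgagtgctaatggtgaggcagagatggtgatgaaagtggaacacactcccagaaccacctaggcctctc
Klk14, chr7:43690168-43690417: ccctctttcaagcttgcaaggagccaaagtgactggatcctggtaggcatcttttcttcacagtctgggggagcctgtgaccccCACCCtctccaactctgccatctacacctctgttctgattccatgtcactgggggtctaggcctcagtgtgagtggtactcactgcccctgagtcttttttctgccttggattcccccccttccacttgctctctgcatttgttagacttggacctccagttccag
The CACCC box was found in 7 of the 10 windows and in 52.01% of all 32851 promoter windows of the same length. It occurred in the windows of Klk7, Klk5 and Klk14 and not in that of Klk8. Whether the box bears on how closely a gene followed Klk7 was not tested. In Klk5 the 2 matches lie end to end. The nuclear receptor half-site AGGTCA (or TGACCT), found in 14.02% of all windows, was in 0 of the 10, as were the AP-1 motif TGANTCA (6.749% of all windows) and the TATA box TATAAA or TTTATA (12.37%). No match says only that these letters are not in this window.

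Markers of differentiated epidermis moved with the 10 genes across arrays. The suprabasal and cornified markers, of which 16 of 20 were tested, had a mean relative to all 8 arrays of 0.47 on labelled-null array 4, where labelled-null arrays 1 to 3 had -0.21 to 0.01, against -0.25 to 0.11 on control arrays. The mean of the 10 genes was 0.43 on labelled-null array 4, with -0.24 to 0.07 on arrays 1 to 3 of that group, against -0.19 to 0.09 on control arrays. Krt77 carried much of the marker mean: without it the remaining 15 markers had 0.30 on labelled-null array 4 and -0.17 to 0.03 on arrays 1 to 3, against -0.20 to 0.06 on control arrays. Among the 16 markers r with Klk7 ran from 0.33 to 0.98 with a median of 0.84, and from -0.04 to 0.96 with a median of 0.75 without labelled-null array 4. Calm4, a calcium-binding protein of the outer epidermis, had the highest r over 8 arrays (0.98, and 0.93 without that array). Involucrin (Ivl) and transglutaminase 1 (Tgm1), which build the cornified envelope, had 0.94 and 0.96 (0.79 and 0.89 without it). The abundant suprabasal keratins Krt1 and Krt10 had 0.33 each and differed between labelled-null array 4 and the mean of the other 3 labelled-null arrays by 0.04 and 0.02. Krt77, a type II keratin of the suprabasal marker list, was 3.63 higher on labelled-null array 4 than on the mean of those 3 arrays, with 12.49 there, 8.66 to 9.19 on arrays 1 to 3, and 8.43 to 10.67 on control arrays.

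Other marker lists did not share one pattern across the arrays. The 8 basal epidermis markers had means between -0.06 and 0.02 on labelled-null arrays and between -0.03 and 0.06 on control arrays. The 9 periderm and simple epithelium markers had 0.75 on labelled-null array 4, with -0.35 to 0.11 for the rest of that group, against -0.59 to 0.47 on control arrays. The 16 tested inner root sheath and hair shaft markers had -0.35 on labelled-null array 4, with -0.16 to 0.08 for the rest of that group, against -0.12 to 0.34 on control arrays. The 9 dermal fibroblast markers stayed between -0.07 and 0.02 on labelled-null arrays and between -0.06 and 0.05 on control arrays. The 8 skeletal muscle markers had 0.11, -0.125, 0.205 and -0.19 on labelled-null arrays 1 to 4, against -0.10 to 0.12 on control arrays. Their sign was opposite to that of the 10 genes on every array but control array 4, where both means were near 0. The 6 tested erythroid markers had 0.44 on labelled-null array 4, with -0.16 to 0.13 for the rest of that group, against -0.30 to 0.07 on control arrays, and 6 of 6 lay above control with 0 past the threshold. A fit with the mean of the suprabasal markers as a covariate was also run. That mean comes from the same 8 arrays and is highest on labelled-null array 4. The fit therefore cannot measure what part these markers have in the differences. It gave differences of -0.052 for Klk5 and -0.023 for Klk7. Klk8 was at 0.009, Klk10 at 0.004, Klk11 at 0.06, Klk13 at 0.07 and Spink5 at 0.061. Klk6, St14 and Klk14 moved further below 0, to -0.143, -0.095 and -0.10. With Krt77 left out of the covariate Klk5 was at -0.044 and Klk7 at -0.010, and 0 of 10 genes passed the threshold in either fit. The part of the periderm, hair, erythroid and skeletal muscle markers was not tested.

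**Figure D4:**
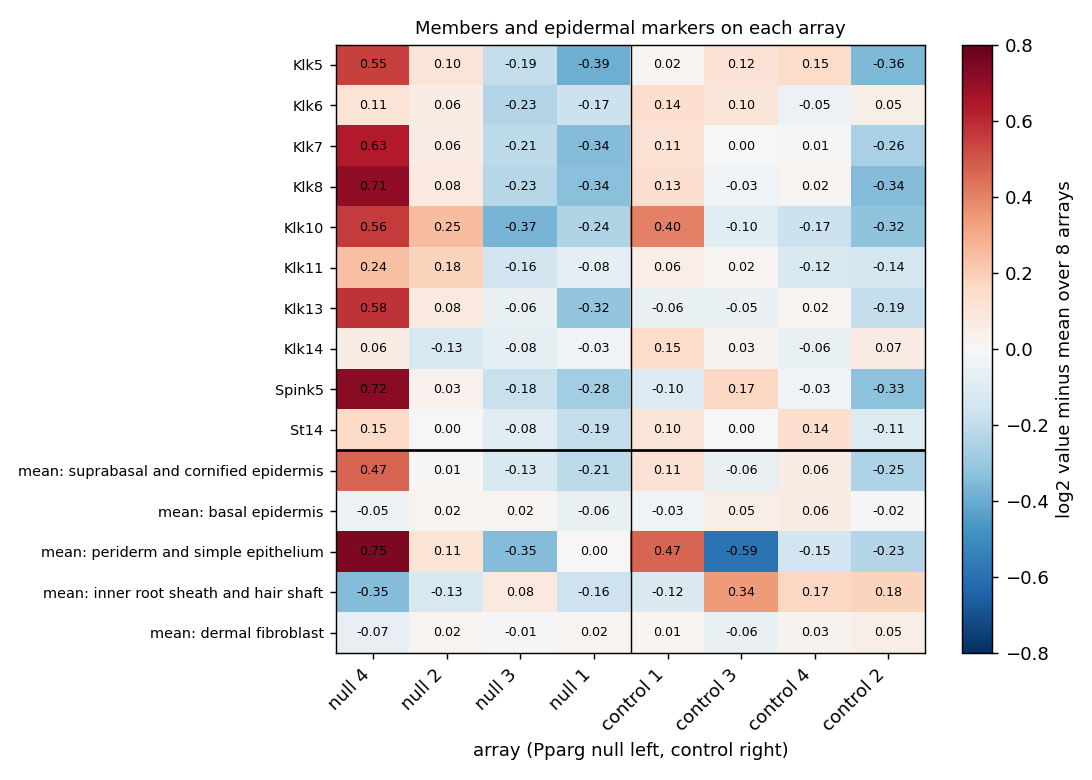
Log2 value minus its mean over the 8 arrays (colour and printed value) for the 10 genes (rows above the line) and for the means of 5 marker lists (below it), with the arrays labelled Pparg null left of the vertical line and control arrays right of it. Labelled-null array 4 reaches 0.72 for Spink5 and 0.47 for the suprabasal markers, beside -0.05 for basal markers.

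The genes most like the 10 were also followed across arrays, by the Pearson r of deviations from the group means over the 8 arrays with the mean deviation of the 10. The 5 closest were Dapl1 (0.998), Acad9 (0.997), Gsdma (0.997), Anxa9 (0.996) and desmoplakin (Dsp, 0.996), the plaque protein that ties desmosomes to keratin. With labelled-null array 4 dropped from the correlation their r stayed between 0.993 and 0.995. The group means still included that array, so these values are not free of it. Dsp read 12.11, 12.28, 12.13 and 12.43 on labelled-null arrays 1 to 4, against 12.25, 12.09, 12.20 and 12.18 on control arrays, and thus ranked the arrays much as Klk7 did. For single genes, Xkrx was closest to both Klk7 (0.999) and Klk8 (0.998), Zswim1 to Klk5 (0.998), Sdr16c6 to Spink5 (0.996), Nfkbib to Klk13 (0.994), Ces2f to Klk10 (0.991), Pafah2 to Klk11 (0.988), the squalene epoxidase gene Sqle to Klk6 (0.990), the AP-1 gene Fosl1 to St14 (0.990) and Atp8b3 to Klk14 (0.980). With 15174 genes and 8 arrays, a highest r near 1 is a ranking and not a finding about any gene.

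The other genes of the cascade gave 0 calls in either direction, beside the background share of 0.119%. Among other kallikreins 3 of 6 were tested, with a median difference of 0.02. Klk9, the neighbour of Klk8, read 8.71, 9.37, 9.00 and 9.62 on labelled-null arrays, against 9.14, 8.91, 9.38 and 9.28 on control arrays, a difference of -0.004 (limma adjusted p = 0.9999). Klk12 and Klk4 differed by 0.07 and 0.02 (limma adjusted p = 0.9995 each).

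Of 15 listed inhibitors of epidermal serine and cysteine proteases and members of their gene families, 9 were tested and 0 passed. Of these, 7 lay above control and 2 below, with a median difference of 0.07. The Spink family genes Spink6, Spink7, Spink8, Spink12 and Spink14 lay under the brightness filter. The genes with the smallest p were Slpi, the secretory leukocyte protease inhibitor (0.09), the cystatin Cst6, an inhibitor of cathepsins (0.12), and the serpin Serpinb5 (0.13), each with a limma adjusted p of 0.9995. The mean of the 9 was 0.32 on labelled-null array 4, with -0.17 to 0.06 for the rest of that group, against -0.18 to 0.03 on control arrays, and 7 of the 9 were highest of their group on that array, with Slpi and Serpinb6a lowest of their group there. The share of all tested genes highest of their group on that array was not counted. Spint1 and Spint2, which encode the membrane-bound inhibitors of matriptase and were picked out after their values were seen, differed by -0.08 and 0.004 (limma adjusted p = 0.9995 each).

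Of 24 other epidermal proteases 19 were tested and 0 passed, with 9 above control, 10 below and a median difference of -0.01. Plat, the tissue plasminogen activator, had the smallest p. It read 7.54, 7.62, 7.58 and 7.66 on labelled-null arrays, against 7.87, 7.77, 7.69 and 7.78 on control arrays, so its groups did not overlap, which 2.45% of tested genes share. Its difference of -0.18 did not pass after adjustment (SE 0.055, limma adjusted p = 0.9995). The urokinase gene Plau and the cathepsin gene Ctsl differed by -0.17 and 0.12 (limma adjusted p = 0.9995 each). Prss8, which encodes the prostasin that matriptase activates and was picked out after its values were seen, read 8.36, 8.96, 8.51 and 9.39 on labelled-null arrays, against 9.20, 8.71, 8.66 and 8.81 on control arrays, a difference of -0.04 (limma adjusted p = 0.9995).

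Of 22 substrates and receptors of the cascade 15 were tested and 0 passed, with 7 above control, 8 below and a median difference of -0.004. Corneodesmosin (Cdsn), the corneodesmosome protein that kallikreins cut, read 10.96, 10.98, 10.99 and 11.20 on labelled-null arrays, against 11.20, 10.97, 11.15 and 11.16 on control arrays. Control array 2 lay among labelled-null arrays 1 to 3 and labelled-null array 4 among the remaining control arrays, and the difference was -0.09 (SE 0.072, limma adjusted p = 0.9995). The desmosomal cadherin Dsg1b differed by 0.12 (SE 0.17), with 10.75 on labelled-null array 4, 9.94 to 10.30 on the other labelled-null arrays and 9.93 to 10.34 on control arrays. The filaggrin relative Flg2 and the receptor Mst1r, whose ligand is cut by serine proteases, differed by -0.17 and -0.13 (limma adjusted p = 0.9995 each). The groups of Mst1r did not overlap, at 7.53 to 7.63 on labelled-null arrays and 7.64 to 7.82 on control arrays, as for 2.45% of tested genes. Dsg1a and Dsc1 had no row with 1 symbol and Dsg1c lay under the brightness filter, so these corneodesmosome genes were not analysed here.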

How the data were processed

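The deposited table holds log2 values. The submitters' processing notes name Affymetrix Expression Console and RMA, which corrects background, equalises the distributions of arrays and summarises each row's probes. A shift of all transcripts together is therefore not visible. For versions and annotation build: not given in the sources used here. Of 35556 rows, 21789 carried 1 symbol, 1621 several and 12146 none in the platform annotation; 21698 symbols were updated through the gene ID. The brightest row stood for a gene with several. Genes above the 30th percentile of their array on at least 4 of 8 arrays were tested with limma 3.58.1 in R 4.3.3 (lmFit, eBayes, Benjamini-Hochberg over all 15174 genes). The step was also run on simulated data with independent noise for each gene. Those data held no shift shared by the genes of an array, so that run does not cover an array set apart from the others. The number of arrays limits the precision. Deviations from group means of arrays with the same number had r of -0.31, 0.20, 0.05 and -0.03. These 4 values cannot settle whether the numbers pair the arrays, and the main fit took the arrays as unpaired. The named genes are the 10, Pparg, up to 3 genes with the smallest p per pathway list, desmosome genes and those most like the 10. Members and lists were chosen with earlier results of these data known. Alternatives were other filters, scalings, priors, weights, a replicate block, rows per gene, 3 covariates and fewer arrays. Promoters come from RefSeq (GRCm38.p6).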

Additional observations from a re-analysis of the deposited data

How the results depend on the processing

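The count of 0 of the 10 genes past the threshold did not change under any of the 22 other settings run, and the lowest adjusted p of any of the 10 was 0.982. Of 208 single differences under other settings 191 kept their sign. With 1 array left out, the differences ranged from -0.14 to 0.17 for Klk5, -0.13 to 0.19 for Klk7, -0.11 to 0.24 for Klk8, -0.075 to 0.24 for Klk10, -0.027 to 0.27 for Klk13 and -0.066 to 0.27 for Spink5. With both control array 1 and labelled-null array 4 left out they were -0.13 for Klk5, -0.083 for Klk7, -0.045 for Klk8, -0.024 for Klk13 and -0.076 for Spink5. With the mean of the suprabasal markers as a covariate Klk5 was at -0.052 and Klk7 at -0.023, and with Krt77 left out of that mean, chosen after seeing the data, at -0.044 and -0.010. The cause of these sign changes was not tested beyond the arrays left out. The replicate block left the differences as they were, with 0 of the 10 genes past the threshold, and brought the count over all genes to 1, against 18 without it. That count was 3 to 15 with 1 array left out, 14 without both arrays named above, 1 with every row on its own and 11 to 21 in the other fits. Xist as a covariate, an alternative chosen after seeing the data, also gave 0 of 10. The number of arrays limits the precision: the data allow any difference inside the intervals given.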
